A study of Mus musculus with 4 samples.

Results

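The 9 genes described here encode the enzymes with which the liver turns ammonia into urea, and enzymes that feed ammonia into that route around the portal vein. They are Cps1, Otc, Ass1, Asl, Arg1, Nags, Gls2, Sds and Hal, chosen by name from the 54149 genes of the deposited expression table, and all 9 were found. Sequencing of polyadenylated liver RNA gave 2 wild-type libraries and 2 libraries of liver-specific Utx knockout mice (labelled Utx KO), all from adult females of strain C57BL/6 x 129S4/SvJae. Utx, listed as Kdm6a, encodes a demethylase of lysine 27 of histone H3. Mice of both groups were fasted for 16 h and then given 300 mg/kg acetaminophen (APAP) into the peritoneum, so no library shows the liver without fasting or without the drug. Every library pooled the RNA of 2 mice. The sources used here do not give the Cre driver of the deletion, whether wild-type mice carried a floxed allele, the age, or the time of tissue collection. P-values measure the spread between pools.

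Ammonia is toxic, and hepatocytes near the portal vein remove most of it through the urea cycle. Nags makes N-acetylglutamate, the activator without which carbamoyl phosphate synthetase 1 (Cps1) does not work. In mitochondria Cps1 joins ammonia with bicarbonate, and ornithine transcarbamylase (Otc) passes the product to ornithine to form citrulline. In the cytosol argininosuccinate synthase (Ass1) and argininosuccinate lyase (Asl) build arginine, and arginase 1 (Arg1) splits it into urea and ornithine. Liver glutaminase (Gls2), serine dehydratase (Sds) and histidase (Hal) release ammonia from glutamine, serine and histidine in the same zone. Fasting and glucagon are known to raise many of these enzymes, since amino acids are then used for glucose. Cells around the central vein hold glutamine synthetase (Glul), which takes up the ammonia that the urea cycle leaves.

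Promoter sequences from RefSeq (GRCm38.p6) were found for 4 of the 9 genes, Otc, Ass1, Nags and Hal. Those of Otc and Hal are shown because these genes had the smallest p-values of the 9, and that of Nags because its difference between groups had the narrowest interval. Each is the 250 bases before the annotated start on the plus strand, and capitals mark matches to the motifs listed after the sequences.
Otc, chrX:10252055-10252304: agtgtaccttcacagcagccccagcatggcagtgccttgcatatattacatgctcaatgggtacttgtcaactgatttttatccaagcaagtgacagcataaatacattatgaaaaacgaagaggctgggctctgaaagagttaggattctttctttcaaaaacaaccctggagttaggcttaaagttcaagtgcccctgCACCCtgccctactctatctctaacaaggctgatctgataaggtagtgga
Hal, chr10:93488518-93488767: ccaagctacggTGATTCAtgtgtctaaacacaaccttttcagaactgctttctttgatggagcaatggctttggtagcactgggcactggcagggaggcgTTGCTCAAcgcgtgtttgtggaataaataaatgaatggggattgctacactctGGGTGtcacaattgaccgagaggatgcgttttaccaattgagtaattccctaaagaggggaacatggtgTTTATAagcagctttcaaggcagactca
Nags, chr11:102145263-102145512: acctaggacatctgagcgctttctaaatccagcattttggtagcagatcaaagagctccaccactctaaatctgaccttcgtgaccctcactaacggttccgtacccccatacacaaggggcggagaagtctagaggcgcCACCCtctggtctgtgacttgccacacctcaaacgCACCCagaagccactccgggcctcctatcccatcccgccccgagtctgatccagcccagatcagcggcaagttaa
The motifs, searched on both strands, were TATAAA (the core promoter box), TTGCNNAA (C/EBP), CAAAGTCC (HNF4), TGACGTCA (cAMP response element), TGANTCA (AP-1) and CACCC (Kruppel-like factors), and no matches overlapped in these windows. The Hal window held TATAAA on the minus strand between 28 and 23 bases before the start, TTGCNNAA between 150 and 143 bases before it, and TGANTCA between 239 and 233 bases before it. Of 32536 distinct windows of this length, 12.3% held the core promoter box, 9.57% the C/EBP motif and 6.73% the AP-1 motif. CACCC was matched once each in Otc and Hal and in 2 places in Nags, and 52.1% of all windows held it. A match is a run of letters and not evidence of binding.

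None of the 9 genes changed beyond the threshold in the knockout. With limma on log2(FPKM + 0.5), where FPKM are fragments per kilobase of gene relative to a library total, 0 of 9 had an adjusted p under 0.05, against 4.74% of the 11900 genes tested (564 genes). Of the 564, 190 were higher and 374 lower, a split that became 211 and 255 when FPKM were rescaled to the listed reads. The 9 all passed the filter of a mean of at least 1 FPKM. At an unadjusted p under 0.05 there were 2, Otc and Hal, against 27.1% of all genes tested. By limma voom on whole reads recovered from the table, 0 of 9 passed, against 9.29% of all genes. The median log2 fold change of the 9 was 0.21, beside 0.01 for all genes tested. The median of the 9 was 0.55 without knockout replicate 2 and 0.00051 without knockout replicate 1. Of the 9 differences 8 were above 0, against 6111 of the 11900 over all genes tested. In 3 of the 9, Otc, Arg1 and Hal, both knockout pools lay above both wild-type pools, a pattern that 31.6% of all genes tested also showed.

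**Figure D1:**
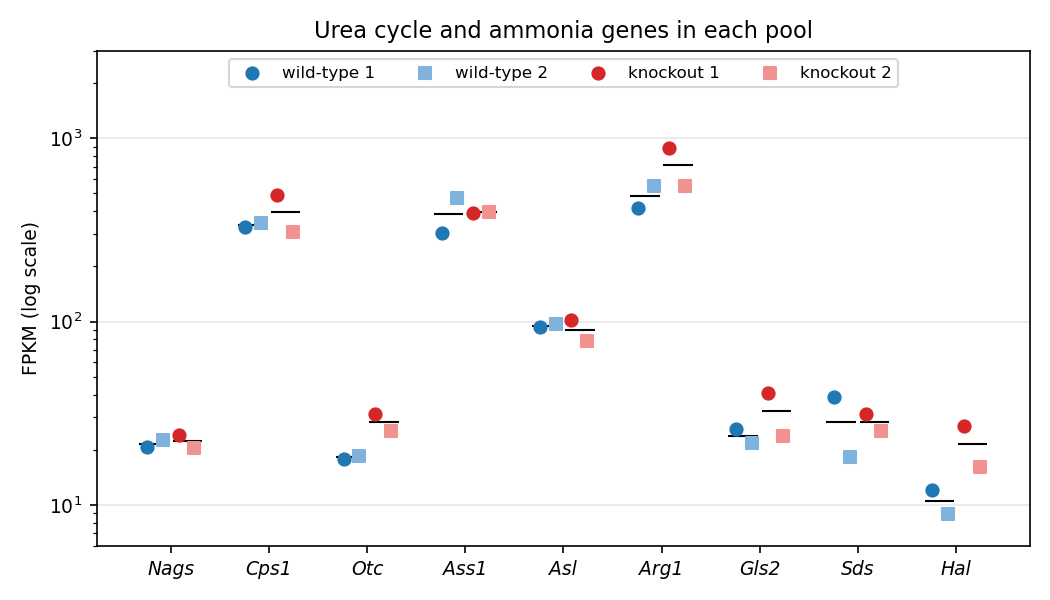
FPKM of each gene (log axis) in the 2 wild-type pools (blue) and the 2 knockout pools (red), with circles for replicate 1, squares for replicate 2 and short lines for group means. The knockout points lie above both wild-type points for Otc, Arg1 and Hal, and the groups overlap for the other 6 genes.

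The libraries held 16330451 to 17804730 recovered reads, and the fewest reads behind any value of the 9 genes were 485, for Sds in wild-type replicate 2. Kdm6a was at 3.40 and 3.85 FPKM in the wild-type and 2.20 and 2.12 in the knockout pools, lower in both but short of the threshold (limma adjusted p = 0.0715). Hepatocyte markers were abundant: Alb stood between 21955 and 29597 FPKM, and all 17 markers found, Cps1 and Ass1 not counted, passed the filter. Of 16 neutrophil markers found, 10 were tested and 4 fell, against 3.14% of all genes tested. All 10 were lower in both knockout pools than in either wild-type pool, as were 3560 of the 11900 genes tested. Their median log2 fold change was -1.45. The summed level of the 16 was 124 and 189 FPKM in wild-type and 41.5 and 37.9 in knockout pools. Ly6g, a defining marker, was at or under 0.338 FPKM in every pool. Summed cholangiocyte markers were at 267 and 105 FPKM in wild-type and at 43.8 and 21.2 in knockout pools, and of the 4 tested Sox9 fell (limma adjusted p = 0.0258). Of 13 sinusoidal endothelial markers tested, 7 were lower in both knockout pools than in either wild-type pool. That pattern was also shown by 3560 of the 11900 genes tested. Of the 13 markers, 0 passed the threshold and 3 had a difference above 0. Mitochondrial ribosomal RNA took 0.244% and 0.251% of wild-type and 0.108% and 0.158% of knockout reads. The part of any of these in the results below was not tested. In bulk tissue, fewer cells of a type and less RNA per cell cannot be told apart.

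The activator step at the start of the cycle showed the smallest spread. Nags (ENSMUSG00000048217, GRCm38 chromosome 11, 102145513 to 102149477, plus strand) was at 20.8 and 22.5 FPKM in wild-type livers and at 24.1 and 20.6 FPKM in knockout livers. The groups overlapped, and both group means lay within 1 FPKM of each other, at 21.6 ± 1.22 and 22.3 ± 2.49 (SD, n = 2 pools in each group, as for all SDs given). The log2 fold change of Nags was 0.04 (SE 0.13, limma adjusted p = 0.852). Its 95% confidence interval ran from 0.816-fold to 1.30-fold, the narrowest of the 9 genes.

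Cps1, the enzyme that fixes free ammonia, had a mean FPKM at the 98.9 percentile of the genes tested. Its gene (ENSMUSG00000025991) lies on chromosome 1 from 67123026 to 67231259 on the plus strand. It was measured at 326 and 343 FPKM in wild-type and at 489 and 307 FPKM in knockout pools. Knockout replicate 1 was the highest pool and knockout replicate 2 the lowest, so the spread within the knockout enclosed both wild-type values. The log2 fold change of Cps1 was 0.21 (SE 0.26, 95% confidence interval -0.47 to 0.89, limma adjusted p = 0.635), and it was -0.13 without knockout replicate 1.

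Otc, which makes citrulline from the product of Cps1, came nearest to the threshold. Otc (ENSMUSG00000031173) is X-linked, at 10252305 to 10321024 on the plus strand, and its level per length was far below that of Cps1. It was at 17.9 and 18.5 FPKM in wild-type livers and at 31.2 and 25.2 FPKM in knockout livers. Both knockout pools were above both wild-type pools, and the wild-type pools differed by less than 1 FPKM. The ratio of the group means was 1.55, and the difference on the log2 scale 0.61 (SE 0.14, 95% interval 0.24 to 0.98, limma adjusted p = 0.0825, unadjusted p = 0.00905). Across the 17 alternatives its log2 fold change stayed between 0.46 and 0.76, and its adjusted p ran from 0.0519 with voom to 0.275.

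The cytosolic enzymes that build arginine did not separate the groups. Ass1 (ENSMUSG00000076441, chromosome 2, 31470207 to 31520672, plus strand), which joins citrulline to aspartate, was at 305 and 472 FPKM in wild-type and at 390.0 and 398 FPKM in knockout pools. Both knockout values lay between the wild-type values. The log2 fold change of Ass1 was 0.06 (SE 0.24, 95% confidence interval -0.59 to 0.70, limma adjusted p = 0.905). Asl (ENSMUSG00000025533, chromosome 5, 130011258 to 130029247, minus strand), which releases arginine and fumarate, was at 93.1 and 97.4 FPKM in wild-type and at 102 and 78.0 FPKM in knockout pools. As for Cps1, the knockout pools were the highest and the lowest of the 4. Asl was the only one of the 9 with a negative difference, a log2 fold change of -0.09 (SE 0.17, 95% confidence interval -0.53 to 0.35, limma adjusted p = 0.754).

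Arg1, which releases urea, had the highest mean FPKM of the 9 genes. Arg1 (ENSMUSG00000019987) is on chromosome 10, 24915221 to 24927484, minus strand. It was at 418 and 548 FPKM in wild-type livers and at 879 and 550.1 FPKM in knockout livers. Knockout replicate 2 was above wild-type replicate 2 by a margin that is small beside the spread within either group. The log2 fold change of Arg1 was 0.54 (SE 0.29, 95% confidence interval -0.23 to 1.31, limma adjusted p = 0.302), and it was 0.20 without knockout replicate 1. Arg2, the mitochondrial arginase of other tissues, was at 0.373 and 0.267 FPKM in wild-type and at 0.236 and 0.123 in knockout pools, below the filter.

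**Figure D2:**
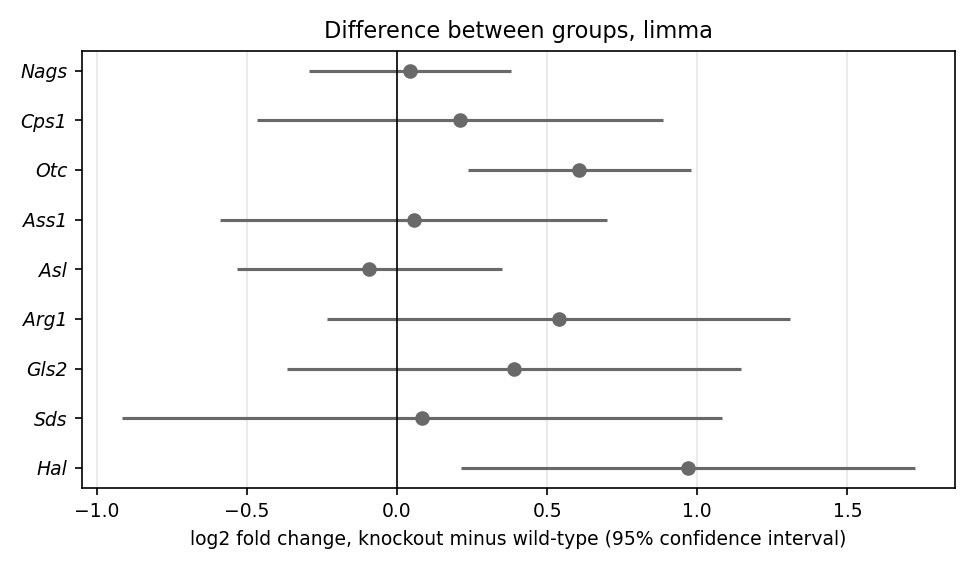
Log2 fold change of each gene, knockout minus wild-type, on log2(FPKM + 0.5), with points for the estimate and lines for the 95% confidence interval of limma. The intervals of Otc (0.24 to 0.98) and Hal (0.21 to 1.73) lie above 0 before adjustment over all genes, and the other 7 include 0.

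Summed over Cps1, Otc, Ass1, Asl and Arg1, the urea cycle took 1161 and 1479 FPKM in wild-type livers and 1891 and 1358 FPKM in knockout livers. The sum was highest in knockout replicate 1, and knockout replicate 2 lay between the wild-type pools. The group means were 1320 ± 225 and 1625 ± 377 FPKM. Their log2 ratio was 0.300, about as large as the SD between pools on that scale, 0.296. With 2 pools against 2 an exact permutation test cannot reach 0.05, so none was run. Arg1 made up 36.0% and 37.0% of this sum in wild-type and 46.5% and 40.5% in knockout pools, while Asl made up 8.02% and 6.58% against 5.40% and 5.74%. Otc was the smallest share, at 1.54% and 1.25% in wild-type and 1.65% and 1.85% in knockout pools. All 9 genes together took 0.437% and 0.475% of the reads in wild-type and 0.666% and 0.488% in knockout pools.

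**Figure D3:**
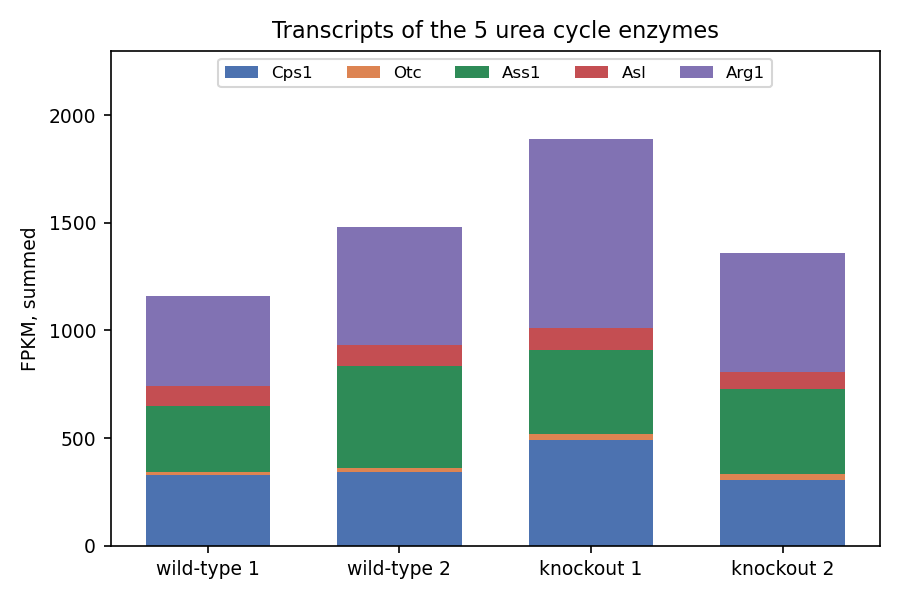
FPKM of the 5 urea cycle enzymes, stacked, in each of the 4 pools, on an axis that starts at 0. Knockout replicate 1 has the highest sum (1891 FPKM), and knockout replicate 2 (1358 FPKM) lies between the wild-type pools (1161 and 1479 FPKM).

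A ratio of 2 genes within a pool does not depend on how the pool was scaled. The ratios given here were chosen after the values had been seen and are descriptions. Otc relative to Cps1 was 0.0548 and 0.0540 in the wild-type pools and 0.0638 and 0.0821 in the knockout pools. Hal relative to Cps1 was 0.0369 and 0.0262 in wild-type and 0.0549 and 0.0527 in knockout pools. Both ratios were higher in each knockout pool than in either wild-type pool. Arg1 relative to Ass1 was 1.37 and 1.16 against 2.25 and 1.38, where knockout replicate 2 barely exceeded wild-type replicate 1.

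Of the enzymes that supply ammonia from amino acids, Hal had the largest difference of the 9 genes. Hal (ENSMUSG00000020017, chromosome 10, 93488768 to 93519304, plus strand), which starts histidine breakdown by removing ammonia, was at 12.0 and 8.99 FPKM in wild-type and at 26.8 and 16.2 FPKM in knockout pools. Both knockout pools were higher than both wild-type pools, but the knockout pools also differed from each other by 1.66 times. The group means were 10.5 ± 2.16 and 21.5 ± 7.52 FPKM, a ratio of 2.05. The log2 fold change of Hal was 0.97 (SE 0.29, 95% confidence interval 0.21 to 1.73, limma adjusted p = 0.122, unadjusted p = 0.0224). It ranged from 0.61 without knockout replicate 1 to 1.32 without knockout replicate 2, and the adjusted p from 0.0647 with the replicate block to 0.291.

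Gls2, the liver glutaminase, was set apart in 1 pool only. Gls2 (ENSMUSG00000044005, chromosome 10, 128194457 to 128210004, plus strand) was at 25.8 and 21.7 FPKM in wild-type and at 41.0 and 23.7 FPKM in knockout pools. Knockout replicate 2 lay between the wild-type pools, and the log2 fold change of 0.39 (SE 0.29, 95% confidence interval -0.37 to 1.15, limma adjusted p = 0.430) became 0.00051 without knockout replicate 1.

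Sds, which turns serine into pyruvate and ammonia, varied most between wild-type pools. Sds (ENSMUSG00000029597, chromosome 5, 120476526 to 120483932, plus strand) was at 38.8 and 18.2 FPKM in wild-type livers, a ratio of 2.13, and at 31.3 and 25.4 FPKM in knockout livers. The knockout values lay inside the wild-type range, and the group means were 28.5 ± 14.5 and 28.4 ± 4.16 FPKM. The log2 fold change of Sds was 0.08 (SE 0.38, 95% confidence interval -0.92 to 1.08, limma adjusted p = 0.909). Leaving out wild-type replicate 1 gave 0.62 and leaving out wild-type replicate 2 gave -0.45, and the 95% interval ran from 0.530-fold to 2.12-fold. Its paralog Sdsl was at 18.8 and 29.9 FPKM in wild-type and at 12.4 and 10.7 in knockout pools, with a log2 fold change of -1.01 (limma adjusted p = 0.0887).

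Knockout replicate 1 carried much of the upward tilt of the 9 genes. It was the highest of the 4 pools for 7 of them, all but Ass1 and Sds. The same held for 6 of the 17 other hepatocyte markers and 3430 of the 11900 genes tested. Knockout replicate 1 was above knockout replicate 2 for 8 of the 9 genes, 14 of the 17 markers and 5809 of all genes tested. Median ratios of knockout replicate 1 to 2 were 1.31 for the 9, 1.17 for the markers and 0.993 for all genes tested. Wild-type replicate 2 was above wild-type replicate 1 for 6 of the 9 genes, all 17 markers and 6194 of all genes tested. Median ratios of wild-type replicate 2 to 1 were 1.05, 1.32 and 1.01 in that order. The summed hepatocyte markers were at 61466 and 48256 FPKM in knockout replicates 1 and 2 and at 51282 and 64627 in the wild-type pools. Summed macrophage markers ran the other way, at 345 and 529 FPKM in knockout and at 519 and 429 in wild-type pools. The part of cell make-up in the members' spread was not tested. When the libraries were scaled to the hepatocyte markers, 8 of 9 differences were again above 0 and 0 of 9 passed. The median over all genes tested was then -0.007. Without knockout replicate 1, 5 of the 9 differences were above 0, and without knockout replicate 2 all 9 were. The median over all genes tested was 0.01 in both of these fits.

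**Figure D4:**
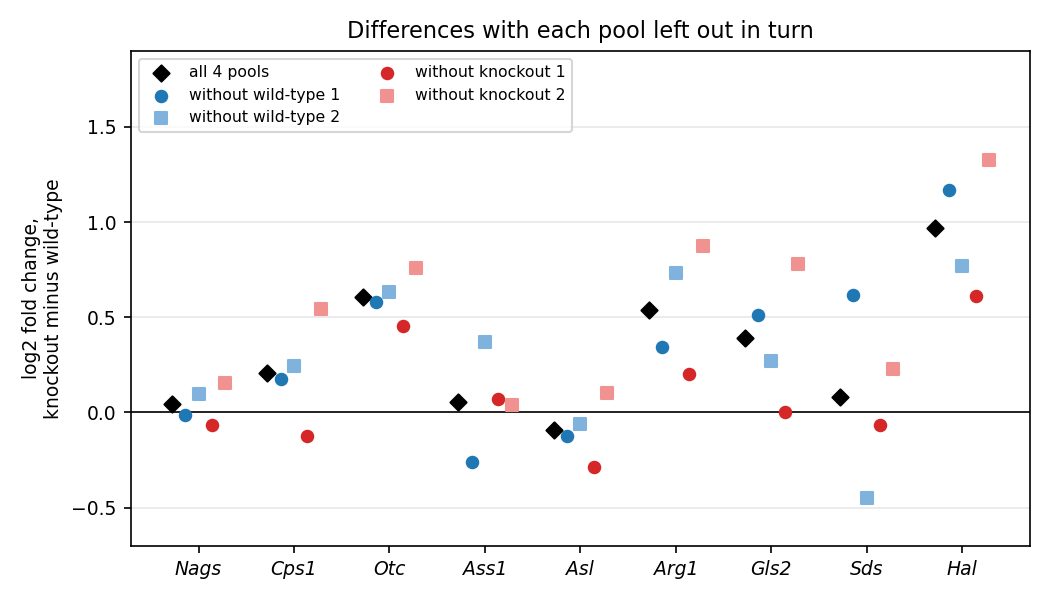
Log2 fold change of each gene with all 4 pools (black diamonds) and with each pool left out in turn (coloured points). Otc, Arg1 and Hal remain above 0 in every case, Gls2 is at 0.00051 without knockout replicate 1, and the sign of Nags, Cps1, Ass1, Asl and Sds depends on the pool left out.

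By Euclidean distance of log2 levels centred over the 4 pools, the gene nearest to the mean profile of the 9 was Mrps18c, a mitochondrial ribosomal protein gene (distance 0.01). Dact2 and Ube2l6 followed at 0.05 and 0.06. That mean profile was -0.13 and -0.18 in wild-type and 0.38 and -0.07 in knockout pools. Among the 9 themselves, Asl and Nags were nearest to each other (0.18), as were Cps1 and Gls2 (0.30) and Otc and Arg1 (0.36). Sds stood farthest from any other member, 0.74 from Gls2. Profiles over 4 points are a description.

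The list for carriers and cofactor supply of the cycle also took in other amino acid carriers, such as Slc25a44. It held 1 gene that rose and 1 that fell among 20 tested, with a median log2 fold change of 0.21. Got1, the cytosolic aspartate aminotransferase, fell from 111 ± 15.1 FPKM in wild-type to 56.0 ± 3.44 in knockout pools (log2 fold change -0.97, SE 0.14, limma adjusted p = 0.0433). Slc25a44, a mitochondrial carrier of branched-chain amino acids, rose from 11.8 and 11.6 to 19.0 and 19.9 FPKM (log2 fold change 0.71, limma adjusted p = 0.0418). The groups did not overlap in either gene. Slc25a13, the aspartate and glutamate carrier citrin that brings out aspartate for Ass1, was at 26.0 and 28.4 FPKM in wild-type and at 50.1 and 42.4 in knockout pools (log2 fold change 0.75, limma adjusted p = 0.0540). Slc25a15, the ornithine carrier, was at 59.3 and 42.4 against 41.8 and 40.8 FPKM (limma adjusted p = 0.394). Car5a, which supplies mitochondrial bicarbonate, was at 3.98 and 4.27 against 6.41 and 3.92 FPKM (limma adjusted p = 0.529). Slc38a2, a neutral amino acid transporter, was at 28.3 and 41.0 against 14.3 and 14.8 FPKM and missed the threshold by little (limma adjusted p = 0.0504).

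Among 21 tested genes of ammonia and glutamate handling, 0 rose and 1 fell, which was Got1 again, and the median was 0.32. Glul, the glutamine synthetase of pericentral cells, was at 60.3 and 97.6 FPKM in wild-type and at 130.3 and 80.1 in knockout pools, and the groups overlapped (log2 fold change 0.41, limma adjusted p = 0.480). The ratio of Cps1 to Glul within a pool was 5.42 and 3.52 in wild-type and 3.75 and 3.83 in knockout pools, again overlapping. Glud1, glutamate dehydrogenase, was at 320.0 and 305 against 368 and 414 FPKM (limma adjusted p = 0.225). Oat, which connects ornithine with glutamate, was at 93.5 and 259 FPKM in wild-type and at 122 and 130.2 in knockout pools (limma adjusted p = 0.727). Gpt, an alanine aminotransferase, was at 55.0 and 64.0 against 119 and 87.6 FPKM (limma adjusted p = 0.0935). Asrgl1, an asparaginase, and Slc1a4, a serine and alanine transporter, had log2 fold changes of 0.55 and 1.74 (limma adjusted p = 0.0804 and 0.0852).

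Of 17 tested genes of serine, glycine, threonine and histidine breakdown and synthesis, 2 rose and 1 fell, with a median of 0.09. Glyctk, a glycerate kinase, rose from 12.5 and 10.7 FPKM to 24.7 and 21.8 (log2 fold change 0.98, limma adjusted p = 0.0399). Mthfd1, an enzyme of folate one-carbon metabolism, rose from 14.2 and 13.6 to 25.4 and 22.7 FPKM (limma adjusted p = 0.0426). Psat1, an enzyme of serine synthesis, fell from 40.8 and 40.6 to 25.9 and 24.9 FPKM (limma adjusted p = 0.0433). Srr, serine racemase, had a log2 fold change of 0.73 (limma adjusted p = 0.0577). Uroc1, which acts on the product of Hal, was at 33.8 and 41.5 FPKM in wild-type and at 67.2 and 51.0 in knockout pools, higher in both but not past the threshold (limma adjusted p = 0.124). Ftcd, later in the same route, was at 76.9 and 113 against 114 and 87.1 FPKM (limma adjusted p = 0.835), so its groups overlapped.

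Of 30 tested genes of other amino acid breakdown, 2 rose and 0 fell, with a median of 0.34. These were Hibch, an enzyme of valine breakdown (6.35 and 5.51 to 11.0 and 10.6 FPKM, limma adjusted p = 0.0426), and Bcat2, a branched-chain aminotransferase (3.52 and 4.01 to 10.7 and 7.64 FPKM, limma adjusted p = 0.0494). Ddc, an aromatic amino acid decarboxylase, and Ivd, of leucine breakdown, missed the threshold with log2 fold changes of 1.04 and 0.76 (limma adjusted p = 0.0576 and 0.0650). Tat, the fasting-induced tyrosine aminotransferase, was at 267 and 414 FPKM in wild-type and at 346 and 349 in knockout pools, with both knockout values inside the wild-type range (limma adjusted p = 0.894). Tat and Ass1 showed the same layout of pools.

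The list of regulators was written by hand, and the action of its genes on the 9 was not tested. Among its 24 tested genes, 2 rose and 1 fell, with a median of 0.23. Klf15, a transcription factor of fasting amino acid breakdown, rose from 8.10 and 6.36 FPKM to 18.6 and 17.4 (log2 fold change 1.26, SE 0.15, limma adjusted p = 0.0331). Onecut1, the hepatic factor HNF6, rose from 2.29 and 3.17 to 9.68 and 7.25 FPKM (limma adjusted p = 0.0426). Sesn2, a stress-induced sensor of leucine, fell from 14.6 and 25.4 to 4.18 and 4.52 FPKM (log2 fold change -2.03, limma adjusted p = 0.0392). Nr1h4, the bile acid receptor, had a log2 fold change of 0.88 (limma adjusted p = 0.0528). The C/EBP factors pointed in opposite directions without passing: Cebpa was at 67.2 and 114 against 139 and 119 FPKM (limma adjusted p = 0.284), and Cebpb at 199.6 and 232 against 127 and 174 FPKM (limma adjusted p = 0.182). Hnf4a, Nr3c1 (the glucocorticoid receptor) and Sirt5 (a deacylase of Cps1) had log2 fold changes of 0.25, -0.18 and 0.48, with limma adjusted p of 0.445, 0.356 and 0.176.

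Of 24 other periportal genes tested, 3 rose and 1 fell, with a median of 0.09. Cyp2f2, a periportal cytochrome P450, had a log2 fold change of 1.07 and Aldh1b1, a mitochondrial aldehyde dehydrogenase, of 0.98 (both limma adjusted p = 0.0375). Igfals, a carrier of insulin-like growth factors, was the third that rose, and Cdh1, E-cadherin, was the one that fell (log2 fold changes 1.42 and -3.98). Of 28 pericentral genes tested, 6 rose and 0 fell, with a median of 0.40. The 6 were Cyp7a1, Cyp2a5, Nr1i2, Nr1i3, Ahr and Tbx3, with log2 fold changes of 3.10, 2.70, 1.22, 1.25, 1.26 and 1.14, and reads of Cyp2a5 cannot be parted with certainty from its near-identical paralog Cyp2a4. Over the 7 lists together, without the 9 genes, 16 of 158 tested genes rose and 4 fell. Over all 11900 genes tested, 190 rose and 374 fell (1.6% and 3.14%). The lists were written by hand with earlier results of these data known, so these counts are descriptions only. No list was tested as a set. With hepatocyte marker scaling, 19 list genes rose and 8 fell, while the calls over all 11900 genes came to 275 higher and 568 lower. The counts also depended on single pools: without wild-type replicate 1, wild-type replicate 2, knockout replicate 1 or knockout replicate 2, the lists held 1, 0, 0 or 4 genes that rose.

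**Figure D5:**
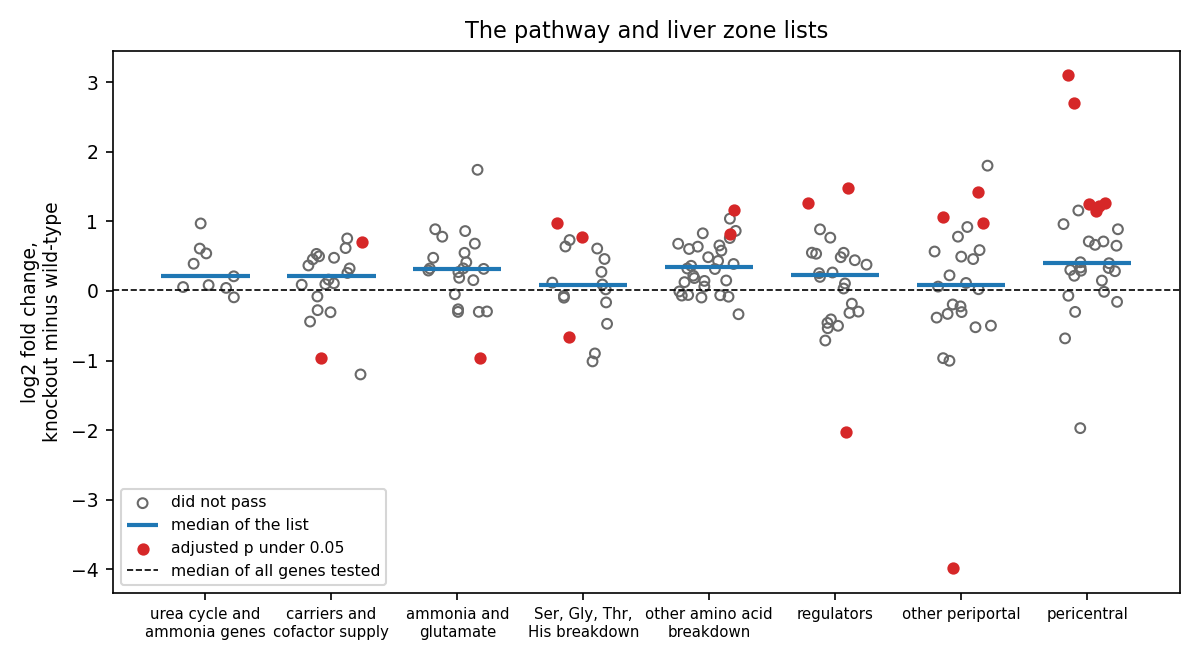
Log2 fold change of each tested gene in the 8 lists, the 9 urea cycle and ammonia genes first, with filled red points for an adjusted p under 0.05, open points for the rest, blue lines for list medians and a dashed line for the median of all genes tested (0.01). The first list has no red point, and its values lie between -0.09 and 0.97.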

How the data were processed

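Members and lists were chosen by name with earlier results of these data known, and so were the tests. The authors deposited FPKM per gene and library. Alignment was to mm10 (GRCm38.p6) with HISAT2 version 2.0.5, per the submitters' processing notes, and the sources used here do not name a counting program, an annotation release or a strand setting, so overlapping antisense reads cannot be separated. Column names gave genotype and replicate, and no sample column went unused. FPKM times gene length was a whole multiple of 1 step per library for 100% of values above 0 (within 0.01 read), which gave the reads. In R 4.3.3, limma 3.58.1 (lmFit, eBayes with trend) was fitted to log2(FPKM + 0.5) of the 11900 genes whose mean reached 1 FPKM, two-sided, with Benjamini-Hochberg adjustment over all of them and a threshold of 0.05 (2 residual and 2.59 prior degrees of freedom). Fold changes on this scale understate the change of low genes. Named were all 9 genes, a fixed set of partners, and of each list the genes past the threshold (up to 8) and the 4 with the smallest p; 1 gene that this rule takes is not reported here. Plots used matplotlib 3.10.9 (Python 3.11.15). The alternatives were the scaling, the filter, the pseudocount, other eBayes settings, voom on the reads, a fit of protein-coding genes, a block on replicate numbers and each library left out.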

Additional observations from a re-analysis of the deposited data

How the results depend on the processing

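In all 17 alternatives, 0 of the 9 genes passed, and the smallest adjusted p among them was 0.0519 (Otc, voom). Their median log2 fold change moved beyond the spread between pools only without knockout replicate 2 (range 0.00051 to 0.55 with each library left out). The number of genes called, 564, was 0 with no filter (limma, 4388 genes at an unadjusted p under 0.05), 280 without a trend, 1105 with voom, 1014 for protein-coding genes alone, 310 with the replicate block, and 0 (2662 at an unadjusted p under 0.05, limma) to 234 with each library left out; the lone library of a group is then assumed to vary like the others. List genes that rose (16) and fell (4) became 0 and 0 with no filter, 6 and 1 without a trend, 26 and 7 with voom, 25 and 7 for protein-coding genes alone and 7 and 2 with the replicate block. With hepatocyte marker scaling 843 genes were called, 275 higher and 568 lower, and 19 list genes rose and 8 fell. With each library left out, 0 to 4 rose and 0 to 3 fell.

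The sign of 10 named differences, none past the threshold, turned when a library was left out, and their ranges were -0.069 to 0.15 for Nags, -0.13 to 0.55 for Cps1, -0.26 to 0.37 for Ass1, -0.29 to 0.10 for Asl, -0.45 to 0.62 for Sds, -0.064 to 0.58 for Car5a, -1.03 to 0.43 for Oat, -0.19 to 0.37 for Ftcd, -0.26 to 0.38 for Tat and -0.31 to 0.12 for Alb. The cause was not tested. Each list gene called lost its call in 3 to 10 alternatives. Same-numbered pools did not deviate together (correlation over genes -0.14), so the numbers are not taken as pairs. A block on crossed numbers, chosen after seeing the data, called 552 genes. Planned edgeR and DESeq2 fits on recovered reads were not run, since the deposited unit is FPKM. The 9 genes had at least 485 reads in each library, and each group had 2 pools.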
